A study of Mus musculus with 6 samples.

Results

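Genes grouped as Schwann cell and myelin genes were followed in aggregated primary mouse Sertoli cells and in the aggregated Sertoli cell line MSC-1. The 10 genes are Sox10, Egr2, Etv1, Mbp, S100b, Ugt8a, Fa2h, Cdh19, Gpr126 (now Adgrg6) and Mpzl2, of which Mpzl2 is known from other tissues rather than from myelin. All 10 were picked by name from the authors' deposited table of probe sets with a fold change of at least 4, where they account for 17 of 3198 probe sets and 10 of the 2291 genes that a probe set names alone. The rule therefore used the contrast between primary and MSC-1 cells, and the differences of these genes in that contrast are given as a description, with no test.

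The primary Sertoli cells came from mice of the strain cross C57BL/6 x 129, and 3 arrays were hybridised with their RNA. Another 3 arrays carried RNA of MSC-1, which is 1 cell line and goes back to a Sertoli cell tumour in a transgenic mouse with the large T antigen of a virus, as background knowledge has it. Both kinds of cells aggregated for 48 h in Ham's F10 medium with supplements and 10% serum and received no other treatment. Donor mice were 10 to 20 days old by the growth protocol but 19 to 20 days old by the design text. Whether the 3 samples of each kind are independent cultures or animals is not stated, so p-values measure only the spread between these samples, which may be technical. The array values are processed signals on a linear scale, 1 for each probe set and array, and the files used here give no detection calls.

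Schwann cells are the glia of peripheral nerves and arise from the neural crest. Sox10 is the transcription factor that founds and keeps this lineage, and in nerve it works with Egr2 (Krox-20), which switches on genes of myelin proteins and lipids. Myelin itself is a stack of membrane held together by proteins such as myelin basic protein and rich in galactosylceramide, which Ugt8a makes and whose fatty acids Fa2h hydroxylates. In the testis Ugt8a also serves spermatocytes, which use it to make the glycolipid seminolipid.

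The 10 genes split evenly. Sox10, Mbp, S100b, Cdh19 and Gpr126 were higher in MSC-1 cells on all 10 of their probe sets, and Egr2, Etv1, Ugt8a, Fa2h and Mpzl2 were higher in primary Sertoli cells on all 7 of theirs. The MSC-1 side held the founding lineage factor, the myelin protein, the calcium-binding protein and the surface genes Cdh19 and Gpr126. The primary side held the remaining factors Egr2 and Etv1, both lipid enzymes and the surface gene Mpzl2. On each of the 17 probe sets the 3 primary arrays lay apart from the 3 MSC-1 arrays, as they did on 51.2% of all 45037 probe sets. All 17 also passed an adjusted p of 0.05 with a fold of at least 4 in limma, as 14.4% of all probe sets did. By adjusted p alone, 39.9% of all probe sets were called, 18.9% as higher in primary cells and 21.0% as higher in MSC-1 cells. Nothing is read from these counts, since the same contrast chose the genes. In bulk samples, fewer cells of a type and less RNA per cell cannot be told apart.

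**Figure D1:**
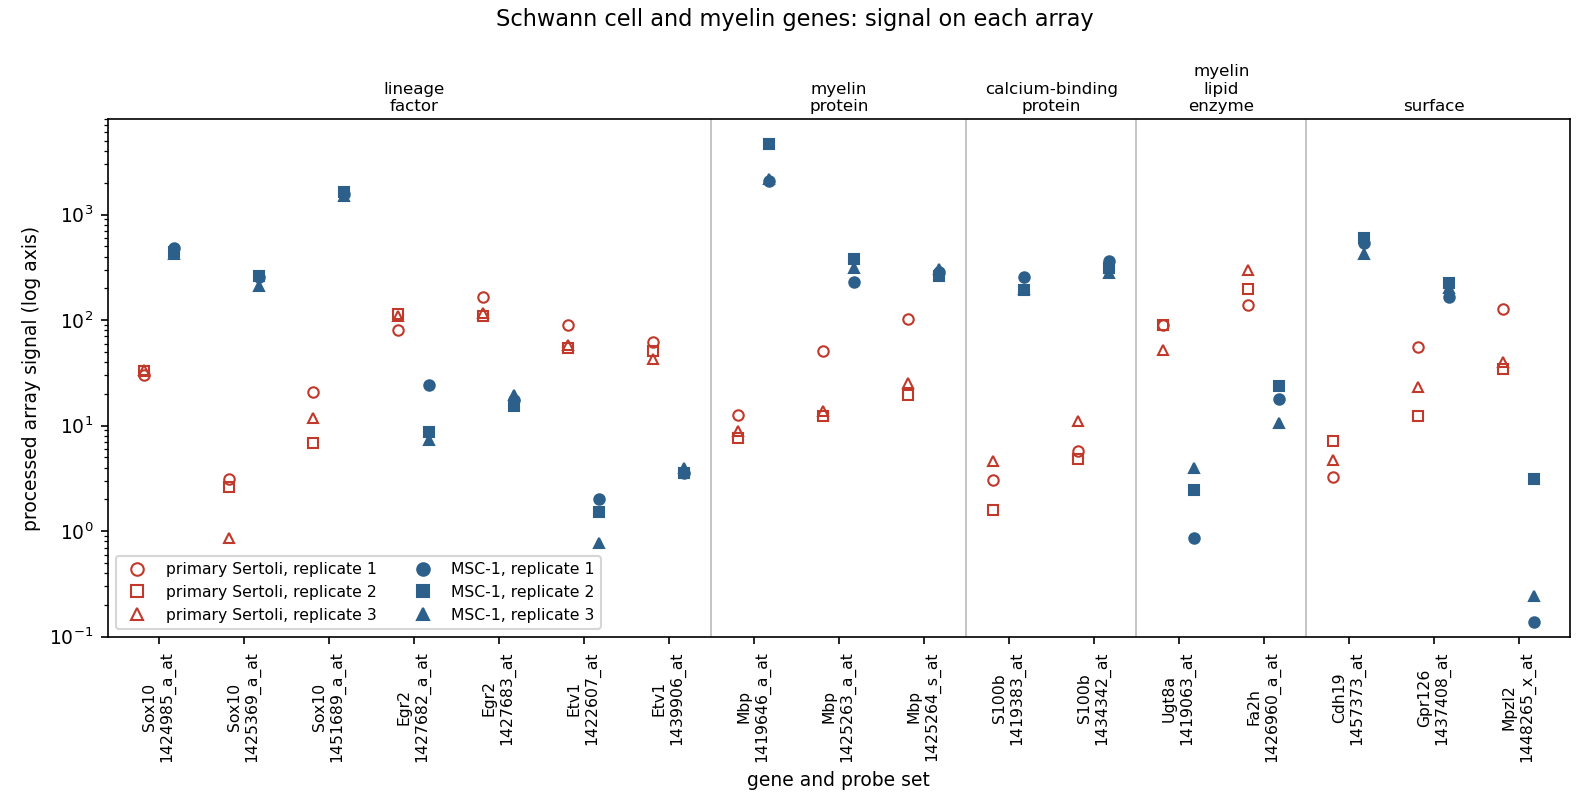
Processed signal (log axis) of the 17 probe sets on each array, ordered by the role of the gene, with primary Sertoli arrays as open red symbols at the left of each pair and MSC-1 arrays as filled blue symbols at the right. Symbol shapes give the replicate. MSC-1 signals of Sox10 probe set 1451689_a_at sit between 1489.6 and 1652, and those of Etv1 probe set 1422607_at between 0.774 and 2.04.

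RefSeq promoters, which run from 250 bases before to 50 bases after a transcript start on build GRCm38.p6, were given for 5 of the 10 genes. One is shown for each of these genes, and motifs were searched because the 10 genes include a SOX, an EGR and an ETS factor. Of the 5, Egr2, Etv1 and Ugt8a lay on the primary side, and S100b and Gpr126 on the MSC-1 side. Capitals mark matches to the letters searched on both strands, which were GTGGGNG or GCGNGGGCG for EGR factors, AACAAT or ACAAAG for SOX factors, and CCGGAAGT for ETS factors such as Etv1.
Egr2, chr10:67535249-67535548, + strand: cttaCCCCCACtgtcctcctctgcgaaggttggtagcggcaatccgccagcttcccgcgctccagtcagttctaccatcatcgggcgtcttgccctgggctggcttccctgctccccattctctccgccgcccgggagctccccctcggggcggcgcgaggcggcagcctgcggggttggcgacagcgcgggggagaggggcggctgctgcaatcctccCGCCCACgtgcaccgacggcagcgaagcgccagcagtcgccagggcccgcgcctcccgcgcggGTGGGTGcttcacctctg
Etv1, chr12:38779832-38780131, + strand: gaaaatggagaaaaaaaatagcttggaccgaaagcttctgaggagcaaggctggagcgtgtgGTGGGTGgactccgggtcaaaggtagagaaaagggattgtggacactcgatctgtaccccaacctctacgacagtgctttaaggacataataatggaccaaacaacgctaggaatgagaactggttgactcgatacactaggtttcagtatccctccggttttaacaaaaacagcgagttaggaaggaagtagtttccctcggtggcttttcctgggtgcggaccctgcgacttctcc
Ugt8a, chr3:125938603-125938902, - strand: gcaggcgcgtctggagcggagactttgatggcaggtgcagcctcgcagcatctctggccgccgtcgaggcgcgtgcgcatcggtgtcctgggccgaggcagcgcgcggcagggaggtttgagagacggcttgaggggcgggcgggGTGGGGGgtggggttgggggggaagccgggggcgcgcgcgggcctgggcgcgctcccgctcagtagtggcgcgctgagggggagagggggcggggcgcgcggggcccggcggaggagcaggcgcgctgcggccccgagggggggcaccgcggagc
S100b, chr10:76253586-76253885, + strand: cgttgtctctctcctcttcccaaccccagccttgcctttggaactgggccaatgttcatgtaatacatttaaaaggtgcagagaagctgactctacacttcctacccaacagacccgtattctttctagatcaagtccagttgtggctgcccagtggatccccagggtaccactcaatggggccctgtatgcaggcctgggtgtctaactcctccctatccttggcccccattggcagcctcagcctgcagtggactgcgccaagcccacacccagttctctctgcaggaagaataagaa
Gpr126, chr10:14544987-14545286, - strand: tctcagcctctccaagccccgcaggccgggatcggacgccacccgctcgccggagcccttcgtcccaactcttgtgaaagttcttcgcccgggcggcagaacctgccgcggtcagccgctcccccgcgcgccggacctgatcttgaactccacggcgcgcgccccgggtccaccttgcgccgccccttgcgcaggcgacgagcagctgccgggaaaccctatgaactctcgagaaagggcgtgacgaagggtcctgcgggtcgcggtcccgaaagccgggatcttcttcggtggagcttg

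In these windows, Egr2 held 3 matches to GTGGGNG, at positions -246, -31 and 33 relative to the start site. Ugt8a held 1 match to GTGGGNG, at -105, and the Etv1 window shown held 1, at -188. An EGR match was found in 34.6% of all 32851 promoters in the table, a SOX match in 27.0% and an ETS match in 3.89%. The S100b and Gpr126 windows held 0 matches of any kind. Of the other promoters in the table, that of Etv1 beginning at position 38783461 of chromosome 12 held 1 SOX match, and of the 4 further promoters of Egr2, 1 held an EGR match. No matched letters overlapped those of another motif. The matches describe the letters and say nothing about binding.

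Among the lineage factors, Sox10 was far higher in MSC-1 cells on all 3 of its probe sets. On 1451689_a_at its signals were 20.8, 6.89 and 11.9 in primary Sertoli cells and 1569, 1652 and 1489.6 in MSC-1 cells. The MSC-1 arrays lay within a factor of 1.11 of each other and far above every primary array. The log2 difference, primary minus MSC-1, was -7.04 ± 0.34 (SE, n = 3 arrays per group). On 1425369_a_at the signals were 3.12, 2.60 and 0.864 in primary cells and 255, 261 and 211 in MSC-1 cells, and on 1424985_a_at they were 29.9, 33.1 and 33.5 against 479, 444 and 425.2. The primary arrays thus read close to their array's median signal (27.2 to 29.8) on the last of these and below it on the others. The probe sets differ in the size of the difference, at -6.98 ± 0.50 on 1425369_a_at and -3.80 ± 0.15 on 1424985_a_at (log2, SE), while all point the same way.

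Egr2, the myelinating factor that acts downstream of Sox10 in nerve and is also an immediate early gene in other cells, went the other way. Its probe set 1427683_at had signals of 167, 111 and 116 in primary cells and 17.7, 15.4 and 19.5 in MSC-1 cells, a log2 difference of 2.89 ± 0.25 (SE). On 1427682_a_at the signals were 80.6, 115 and 109.9 in primary cells and 24.1, 8.72 and 7.39 in MSC-1 cells. Primary cells were higher on both probe sets without overlap, and MSC-1 replicate 1 stood above the other MSC-1 arrays on the second only. MSC-1 cells, with the high Sox10 signals, thus had the low Egr2 signals.

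Etv1 encodes an ETS transcription factor. On 1422607_at its signals were 89.2, 53.9 and 58.1 in primary cells and 2.04, 1.53 and 0.774 in MSC-1 cells. On 1439906_at they were 61.8, 50.5 and 43.1 in primary cells and 3.54, 3.56 and 3.95 in MSC-1 cells. All MSC-1 signals of Etv1 lay in the lowest 25 percent of their array, and the primary signals lay moderately above the median of theirs. The estimated fold depended on how low signals are handled: it was 48.8-fold on 1422607_at from the signals as deposited and 4.68-fold with 16 added before the logarithm.

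Mbp, the gene of the protein that holds the inner faces of the myelin membrane together, was higher in MSC-1 cells on 3 probe sets. On 1419646_a_at its signals were 12.5, 7.64 and 8.93 in primary cells and 2079, 4692 and 2190.0 in MSC-1 cells. MSC-1 replicate 2 stood above the other MSC-1 arrays there, by a factor of 2.26 over the lowest, and all 3 were far above the primary arrays. The log2 difference was -8.19 ± 0.32 (SE), the furthest from 0 of the 17 probe sets by this measure. The other probe sets of Mbp gave smaller differences.

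On 1425263_a_at Mbp read 50.7, 12.2 and 13.7 in primary cells and 229, 378 and 309 in MSC-1 cells. On 1425264_s_at it read 102, 19.4 and 25.2 in primary cells and 286, 260.4 and 303 in MSC-1 cells. In both, primary replicate 1 stood above the other primary arrays, and MSC-1 replicate 2 did not stand out on the second. The log2 differences were -3.87 ± 0.49 and -2.94 ± 0.52 (SE). The gene makes several transcript forms, and which forms each probe set reads is not stated in the files used here.

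S100b, the gene of a calcium-binding protein widely used to mark Schwann cells and other glia, was higher in MSC-1 cells on both probe sets. On 1434342_at the signals were 5.71, 4.88 and 10.98 in primary cells and 360.1, 313 and 277 in MSC-1 cells, a log2 difference of -5.55 ± 0.33 (SE). On 1419383_at they were 3.05, 1.60 and 4.59 in primary cells and 257, 193 and 199 in MSC-1 cells, a log2 difference of -6.25 ± 0.42 (SE). All 3 primary arrays read below the array's median on both probe sets, and all MSC-1 arrays well above it.

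Ugt8a and Fa2h, the myelin lipid enzymes of this set, were low in MSC-1 cells, unlike Mbp. Other lipid genes, given below, lay on both sides. Ugt8a, which adds galactose to ceramide, had signals of 90.4, 90.3 and 51.7 in primary cells and 0.853, 2.45 and 3.98 in MSC-1 cells. Fa2h, which hydroxylates the fatty acids of these lipids, had signals of 139.9, 199 and 301 in primary cells and 17.8, 23.7 and 10.7 in MSC-1 cells. Neither gene overlapped between the groups. The Ugt8a signals in MSC-1 cells were at the low end of the array and those of Fa2h below its median. The log2 differences were 5.21 ± 0.62 for Ugt8a and 3.62 ± 0.36 for Fa2h (SE). Ugt8a was 37.0-fold higher with all arrays and 24.0-fold without MSC-1 replicate 1. With 16 added to each signal Ugt8a and Fa2h came to 4.98-fold and 6.67-fold, higher in primary cells.

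Of the surface genes, Cdh19, a cadherin of Schwann cell precursors, was low in primary cells and high in MSC-1 cells. Its signals were 3.24, 7.09 and 4.71 in primary cells and 538, 602 and 427 in MSC-1 cells, a log2 difference of -6.76 ± 0.31 (SE). The authors' deposited table gives it 74.6-fold, rank 1 of its 1296 probe sets on that side. Gpr126, an adhesion receptor that raises cyclic AMP and starts myelination in Schwann cells, read 56.1, 12.4 and 23.4 in primary cells and 165, 227 and 201 in MSC-1 cells. Primary replicate 1 was the highest primary array for Gpr126, and it still lay below every MSC-1 array.

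Mpzl2 encodes an adhesion protein with immunoglobulin-like folds, and is known from epithelia and thymus rather than from myelin. Its signals were 127, 34.7 and 40.5 in primary cells and 0.139, 3.15 and 0.242 in MSC-1 cells. Primary replicate 1 was again highest, and the MSC-1 signals were near the bottom of the array, where they scattered by a factor of 22.6. The log2 difference was 6.90 ± 1.15 (SE), with the widest error of the 17 probe sets. The fold came to 119 from the signals as deposited, to 4.34 with 16 added, and to 10.8 in the authors' deposited table. It was 64.5 without MSC-1 replicate 1 and 307 without MSC-1 replicate 2. The name of this probe set ends in x_at, by which Affymetrix marks sets with probes that may also bind other transcripts.

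The size of most of these differences depended on the measure used, while the direction did not. The folds in the authors' deposited table are not ratios of the deposited signals, and no label or header states how they were made. The authors' deposited table gave 27.0-fold for Sox10 on 1451689_a_at and 71.4-fold for Mbp on 1419646_a_at, where the signals gave 131-fold and 292-fold. For S100b on 1434342_at the measures lay nearer to each other, at 39.2-fold in the authors' deposited table and 46.8-fold from the signals. Over all 3198 probe sets the log2 size from the signals was a median of 0.37 above that in the authors' deposited table, and 0.01 above it over the 769 whose signals were at least 50 on every array. For Gpr126 and for Etv1 on 1439906_at, which lay closest to the selection limit of 4, the authors' deposited table gave 4.37-fold and 4.66-fold. Probe sets outside that table carry no gene name here, so further probe sets of these genes were not analysed. Signs agreed between the deposited table and the signals for all 3198 probe sets, with positive folds higher in primary Sertoli cells.

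**Figure D2:**
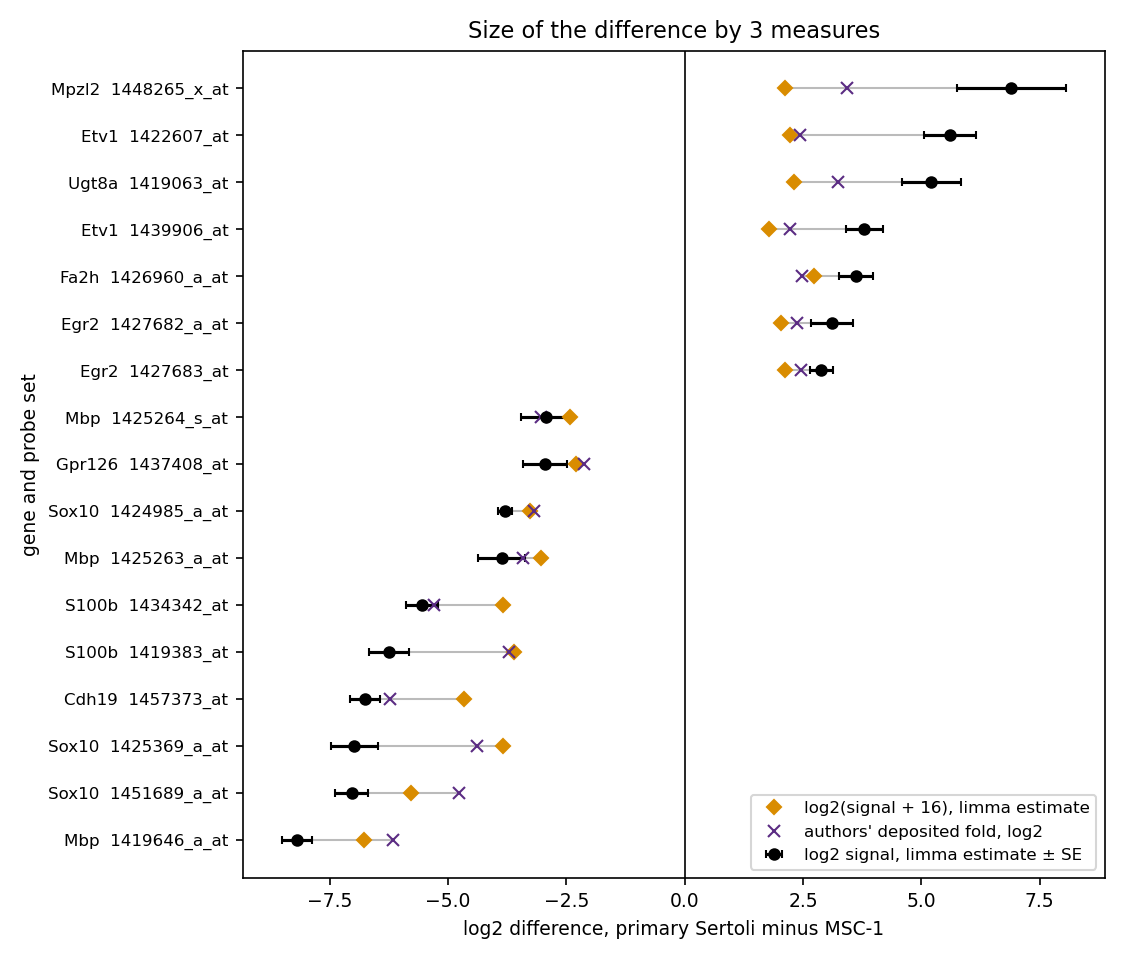
Log2 difference, primary Sertoli minus MSC-1, of the 17 probe sets by 3 measures, with black circles for the limma estimate from the signals (bars, SE), diamonds for the estimate with 16 added before the logarithm and crosses for the authors' deposited table. Every probe set keeps its side, and Mpzl2 moves furthest, between 2.12 and 6.90.

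The primary arrays were not alike for these genes. Primary replicate 1 gave the highest of the 3 primary signals on 11 of the 17 probe sets (64.7%), against 38.1% of all probe sets. The excess was widest for Mbp on 1425264_s_at, where replicate 1 read 4.56 times the mean of the other primary arrays, and on 1425263_a_at, where it read 3.90 times that mean. Mpzl2 read 3.38 times and Gpr126 3.13 times that mean, whereas Cdh19 read 0.548 times and Fa2h 0.559 times it. Cdh19, S100b and Fa2h thus did not share the high reading of replicate 1.

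Markers of other cells also differed between primary replicate 1 and the other primary arrays, in both directions. All 8 probe sets of smooth muscle and peritubular markers were highest there, and the summed signal of the 5 named genes, with 1 probe set each, was 3425 in replicate 1, against 1898 and 1878 in replicates 2 and 3. For Leydig cell markers the sums were 2635 in replicate 1, against 1567 and 1239.9. Of these, Pdgfra, which other stromal cells express too, read 1992 in replicate 1 against 986 and 729.9 on 1421917_at. Star, of steroid-making cells, read 643 in replicate 1 against 581 and 510.0 on 1449201_at. On 1418728_at and 1418729_at Star was instead highest in replicate 2, at 574 and 442, against 480.4 and 429.6 in replicate 1. Germ cell markers summed to 5305 in replicate 1, against 7450.5 and 7151, and macrophage and leukocyte markers to 578, against 708 and 997. Melanocyte genes summed to 298 in replicate 1, against 102 and 107. Most of that difference lay in Gpnmb (155 against 18.3 and 16.1) and Ednrb (86.1 against 40.6 and 45.3). Dct (24.4 against 11.5 and 17.7) and Mitf on 1455214_at (32.9 against 31.7 and 27.5) differed less in signal. Cst12, a protease inhibitor gene of Sertoli cells, read 661 in replicate 1, against 2318 and 1891. The part of these cells in the readings of the 10 genes was not tested. Without primary replicate 1, the difference between the groups widened to 23.1-fold (14.7-fold with all arrays) for Mbp on 1425263_a_at and to 12.8-fold (7.69-fold with all arrays) for Mbp on 1425264_s_at. For Mpzl2 it narrowed to 79.2-fold (119-fold with all arrays), and no probe set of the 10 genes changed its side.

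**Figure D3:**
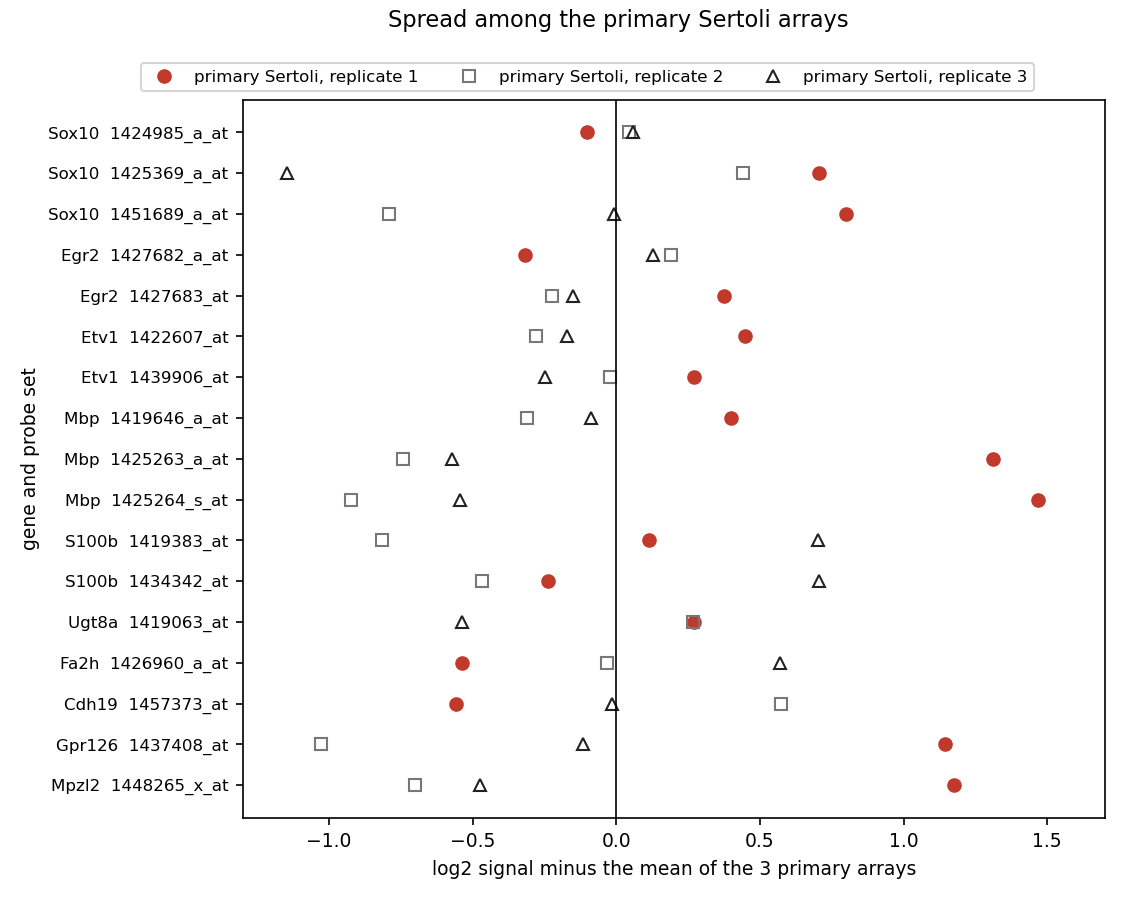
Log2 signal of each primary Sertoli array minus the mean of the 3 primary arrays, for the 17 probe sets. Primary replicate 1 (filled circles) lies highest on 11 probe sets, with its widest distance on the Mbp probe sets 1425263_a_at and 1425264_s_at.

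Genes related to these 10 were followed from 8 lists of 149 genes in all, of which 29 are named in the authors' deposited table. All 29 were called in limma (adjusted p under 0.05), as 39.9% of all probe sets were and 3197 of the 3198 in the deposited table. Reading nothing from that count, the sides can be described: 25 of the 29 (86.2%) were higher in MSC-1 cells and 4 in primary cells, whereas 37.9% of the 2291 genes in the deposited table were higher in MSC-1 cells. Their median log2 difference was -2.83, beside 2.98 for all genes of the deposited table. The lists were drawn up with earlier results of these data known, and the genes could be named only through a table selected on the same contrast, so these shares and the p-values of these genes are a description and no independent evidence.

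**Figure D4:**
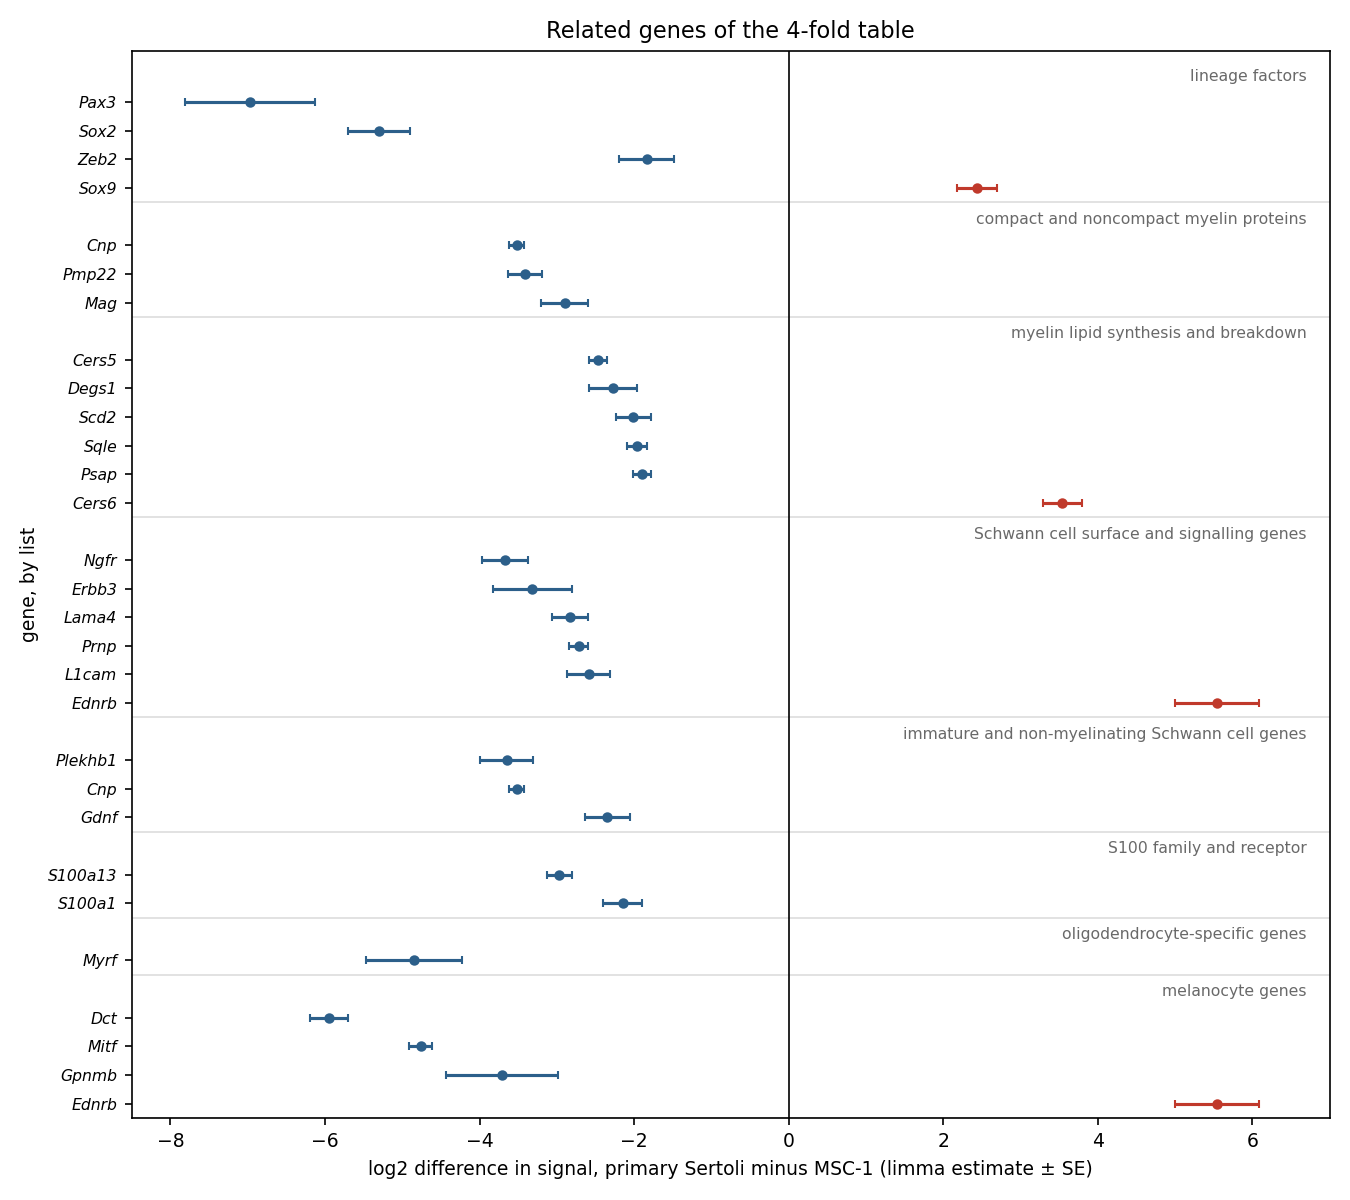
Log2 difference in signal, primary Sertoli minus MSC-1 (limma estimate, bars SE, 3 arrays per group), of the related genes reported here, by list. Blue points left of 0 are higher in MSC-1 cells, red points right of 0 are higher in primary Sertoli cells, and Cnp and Ednrb stand in 2 lists each. The genes plotted at the right are Sox9, Cers6 and Ednrb.

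Myelin protein genes beside Mbp were all on the MSC-1 side, with 4 of 19 listed genes named. Pmp22, a membrane protein of peripheral myelin, read 269, 168 and 136 in primary cells and 1870.4, 2109 and 1886 in MSC-1 cells. The groups did not overlap, and the signal was 10.7-fold higher in MSC-1 cells. Cnp, a phosphodiesterase gene of myelin-forming cells, fell by 3.52 ± 0.10 (log2) in primary relative to MSC-1 cells on 1437341_x_at (limma, adjusted p = 6.1e-08). The x_at ending, as for Mpzl2, marks probes that may also bind other transcripts. On its other probe sets, 1418980_a_at and 1449296_a_at, Cnp gave smaller log2 differences of -3.0 and -2.96. Mag, an adhesion gene of the myelin sheath, fell by 2.90 ± 0.30 on the same scale (limma, adjusted p = 7.58e-05). Mpzl1 and Mpzl3 were not named in the table and were not analysed here.

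Among lineage factors, 4 of 18 genes were named, 3 of them higher in MSC-1 cells. Sox2, a factor of immature Schwann cells that opposes myelination, read 4.16, 4.92 and 4.08 in primary cells and 117, 307 and 143 in MSC-1 cells. Pax3, a neural crest factor, read 6.02, 0.940 and 0.434 in primary cells and 176, 162 and 168 in MSC-1 cells on 1441743_at. The primary signals of Pax3 lay at the low end of the array, and its fold was 125 from the signals on that probe set, 264 without primary replicate 1, 70.9 without primary replicate 3 and 10.1 with 16 added. It was 36.9 and 41.5 on its other probe sets, and 20.1 on 1441743_at in the authors' deposited table. Zeb2, which is needed for Schwann cell maturation, was 3.58-fold higher in MSC-1 cells (limma, adjusted p = 0.00313). Sox9, a relative of Sox10 that fixes Sertoli cell fate, stood against these, at 131, 204 and 244 in primary cells and 36.4, 39.7 and 28.1 in MSC-1 cells. Sox10 and Sox9 were thus high in opposite groups. Pou3f1, Egr1, Egr3, Etv4 and Etv5 were not named in the table.

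Surface and signalling genes of Schwann cells had 6 of 27 members named, 5 of them higher in MSC-1 cells. Erbb3, the neuregulin receptor on which Schwann cells depend, read 229, 40.3 and 66.2 in primary cells and 857, 915 and 779 in MSC-1 cells. Primary replicate 1 was high here too, as for Mbp and Gpr126, and the fold was 16.4 without it (10.0 with all arrays). Ngfr, the low-affinity neurotrophin receptor, read 23.9, 25.7 and 43.0 in primary cells and 290.5, 567 and 329.5 in MSC-1 cells on 1454903_at. Prnp, whose product binds Gpr126 and activates it, was 6.61-fold higher in MSC-1 cells (limma, adjusted p = 5.7e-07), so receptor and ligand genes lay on the same side. Lama4 was 7.10-fold and L1cam 6.04-fold higher in MSC-1 cells. Ednrb, the endothelin receptor of neural crest cells, was the exception, with 86.1, 40.6 and 45.3 in primary cells and 1.29, 1.17 and 1.04 in MSC-1 cells.

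Lipid genes had 7 of 36 members named, 5 higher in MSC-1 cells and 2 in primary cells. The ceramide synthase genes were divided: Cers5 read 380.0, 305 and 312 in primary cells and 1977, 1821 and 1718 in MSC-1 cells, while Cers6 read 237, 168 and 190.5 in primary cells and 22.3, 14.2 and 15.3 in MSC-1 cells. Sqle, an enzyme of cholesterol synthesis, was 3.89-fold higher in MSC-1 cells on 1445322_x_at and 5.39-fold on 1445321_at. Degs1, which makes ceramide, was 4.81-fold higher in MSC-1 cells, and Scd2, a fatty acid desaturase gene, 4.02-fold. Psap, the precursor of proteins that help to break down galactosylceramide, was 3.74-fold higher in MSC-1 cells. Ceramide genes upstream of Ugt8a thus lay on both sides, while Ugt8a and Fa2h lay on the primary side. Gal3st1 and Cers2 were not named in the table.

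Of the S100 family, 2 of 15 genes were named, and both S100a13 (7.85-fold) and S100a1 (4.43-fold) were higher in MSC-1 cells, on the side of S100b. Of 14 genes of immature and non-myelinating Schwann cells, 3 were named and higher in MSC-1 cells, with Plekhb1 at 12.6-fold and Gdnf at 5.11-fold beside Cnp. Of 12 oligodendrocyte genes only Myrf, a myelin gene regulator of the central nervous system, was named, at 7.26, 56.6 and 29.3 in primary cells and 587, 915 and 534 in MSC-1 cells. Its fold of 28.8 became 16.2 without primary replicate 1 and 45.2 without primary replicate 2. Of 12 melanocyte genes, which share the neural crest origin, 4 were named and 3 were higher in MSC-1 cells. Dct, a melanin synthesis gene, read 24.4, 11.5 and 17.7 in primary cells and 1047, 1127 and 996 in MSC-1 cells. Mitf, the master factor of melanocytes and a target of Sox10, was 27.0-fold higher in MSC-1 cells (limma, adjusted p = 9.65e-08). Gpnmb, a melanosome gene, was 13.1-fold higher in MSC-1 cells, and 27.2-fold without primary replicate 1.

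Sertoli cell markers were set beside the labelled cell types, and 11 of 27 were named. In primary cells 7 were higher, and 4 (Trf, Ptgds, Gdnf and Vim) were higher in MSC-1 cells. That split is close to the share in the deposited table, where 62.1% of the 2291 genes were higher in primary cells. The count is therefore not read as a check of the labels. Inha read 789, 604 and 707 in primary cells and 26.1, 27.3 and 30.9 in MSC-1 cells. Aard read 531, 578 and 675 in primary cells and 0.454, 1.65 and 1.58 in MSC-1 cells. Fshr, Amh, Gata4 and Wt1 were not named in the table, so their levels were not analysed here. The summed signal of the 11 markers was 9696 to 10280.5 in primary cells and 12133 to 12676 in MSC-1 cells. A few bright genes made up most of these sums. In MSC-1 cells the largest means were 5975 for Vim and 4116 for Trf, and in primary cells the largest was 4554 for Clu.

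Most named markers of other testis cells lay on the primary side, as did 62.1% of the 2291 genes in the deposited table. Only genes of that table could be named, so the counts are a description. All 9 named of 19 germ cell markers were higher in primary cells, with summed signals of 5305 to 7450.5 in primary cells and 53.9 to 79.5 in MSC-1 cells. The 2 named of 9 Leydig cell markers (Pdgfra and Star) summed to 1239.9 to 2635 in primary cells and 72.5 to 109.7 in MSC-1 cells, and the 3 named of 13 macrophage and leukocyte markers to 578 to 997 in primary cells and 35.0 to 74.3 in MSC-1 cells. Of 10 peritubular markers, 4 of the 5 named were higher in primary cells. The exception, Mylk, was higher in MSC-1 cells on each of its probe sets. The summed signals of the 5 overlapped between the groups, at 1878 to 3425 in primary cells and 2069 to 2684 in MSC-1 cells. Of 10 endothelial markers, 0 were named. The part of these cells in the primary signals of Ugt8a, Fa2h, Egr2, Etv1 and Mpzl2 was not tested. No list had a named marker at exactly 0 on any array.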

How the data were processed

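Expression was measured on 6 Affymetrix arrays, 3 per group, from 10 ug of total RNA each, per the labels' protocols. The authors deposited processed signal intensity values for each probe set and array, and the submitters' processing notes name GCOS, Affymetrix's array software, with no role or version; scaling and background steps are not given in the sources used here. Medians of the arrays were 23.0 to 29.8, and correlations of log2 signals were 0.917 to 0.935 within groups and 0.776 to 0.784 between them. The number of arrays limits the precision. A second table holds the authors' deposited signed fold changes; 8 blank lines were dropped.

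Log2 signals of 45037 probe sets (controls left out) were fitted with limma 3.58.1 (lmFit, eBayes with trend) in R 4.3.3, with Benjamini-Hochberg adjustment and a threshold of 0.05, and the script was tested on simulated data. Gene names came only from the deposited fold table. Of its probe sets, 3069 had 1 symbol, 79 several and 50 none, and 0 of the several-symbol sets held one of the 10 genes. RefSeq's GRCm38.p6 gene table held 1814 of 2332 symbols as current names, 65 in another letter case and 337 as synonyms; for the other 116 the file's symbol was kept. A related gene was represented by its named probe set with the highest mean over all arrays. Named are all probe sets of the 10 genes, fixed relatives, and up to 4 called genes per list with the largest change; further list genes were named after their values were seen, and a few listed genes are counted but not reported here by name. The members and lists were chosen with earlier results of these data known. Over all probe sets, same-numbered samples did not deviate together (correlations -0.016, -0.029 and -0.00086). The main fit therefore used no pairing, though such correlations cannot show that same-numbered samples were prepared apart. Python 3.11.15, numpy 2.4.6, pandas 2.3.3 and matplotlib 3.10.9 were used.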

Additional observations from a re-analysis of the deposited data

How the results depend on the processing

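All 17 probe sets of the 10 genes kept their side, with 7 higher in primary and 10 in MSC-1 cells, under quantile normalization, 16 added before log2, a filter on dim probe sets, no variance trend, the replicate block, each of the 6 arrays left out and the authors' deposited folds. Of the log2 differences of the 10 genes, 9 moved by more than the spread between replicates with 16 added before log2 and 9 with the authors' deposited folds. The replicate block, for whose numbers no sign of pairing was seen, gave 7942 calls higher in primary and 8749 higher in MSC-1 cells. Without it there were 8495 and 9463. A fold of at least 4 lowered the calls without the block to 4445 and 2019. Leaving out 1 array gave 7214 to 8379 and 7375 to 10235 calls. Quantile normalization moved the median log2 difference of all probe sets to -0.24, against -0.05, with 4 listed genes higher in primary and 25 in MSC-1 cells as before. Low signals in the lower group and the absence of detection calls limit the sizes of these folds.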

Other observations

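Beyond the lists, a search of the gene titles in the deposited table for myelin, Schwann, glia or neurofilament, made after values had been seen, found 6 further genes on 14 probe sets, 5 of them higher in MSC-1 cells on all 12 of their probe sets. Nrcam, a neuron-glia adhesion gene, read 34.5, 49.1 and 45.5 in primary cells and 854, 1071 and 793 in MSC-1 cells on 1434709_at, and it was higher in MSC-1 cells on each of its probe sets. Metrn, a gene that regulates glial differentiation, read 57.5, 33.5 and 41.4 in primary cells and 815, 807 and 714 in MSC-1 cells. The neurofilament gene Nefm read 13.9, 17.8 and 7.07 in primary cells and 181, 469 and 208 in MSC-1 cells, and Nefl and Schip1 lay on the same side. Myt1l, a neuronal transcription factor gene, was the exception, with 93.9, 134 and 122 in primary cells and 2.08, 4.46 and 5.69 in MSC-1 cells on 1421175_at.

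MSC-1 replicate 2 gave the highest MSC-1 signal on 6 of the 10 probe sets of Sox10, Mbp, S100b, Cdh19 and Gpr126. It did so on 7 of the 9 of the Schwann cell surface list, where some genes have several. The share was 35.0% of all probe sets and 39.0% of those in the authors' deposited table. It also varied among marker lists, at 55.6% of 9 germ cell probe sets and 0.0% of 3 macrophage and leukocyte ones. Among single genes it read highest for Mbp on 1419646_a_at, Sox2, Ngfr, Degs1, Gdnf and Nefm, while S100b was highest in MSC-1 replicate 1 on both of its probe sets.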
